A study of Danio rerio with 12 samples.

Results

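Livers of kras transgenic zebrafish given TDCIPP together with DOX (TDCIPP+DOX) were set against livers of the same line given DOX alone (DOX). All 3 TDCIPP+DOX and all 3 DOX libraries entered the comparison, 6 of the 12 RNA-seq libraries of the study. The other 6 libraries were 3 given TDCIPP without DOX (TDCIPP) and 3 given DMSO, the solvent (DMSO). They entered the filter, the scaling and the estimate of the spread, and the test of whether the effect of TDCIPP differed with DOX. Their levels are given where they help to place a gene. Of the 34028 genes in the deposited table, the 19160 that passed a filter on low counts were tested. All fish were 3 months old, and all 4 groups carried the transgene, called krasV12 in the series title, an activated form of the GTPase that passes growth factor signals to the MAPK cascade. The labels spell out neither DOX nor the promoter that drives the transgene, and give no dose or length of exposure. The chemical TDCIPP, tris(1,3-dichloro-2-propyl)phosphate, belongs to the organophosphate flame retardants. The series title ties TDCIPP to liver tumours and to inflammation. The comparison shows how the libraries of livers given TDCIPP with DOX differed from those of livers given DOX alone.

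A fish liver is made up mainly of hepatocytes, which secrete plasma proteins, make yolk precursors in females and handle lipids, sugars and amino acids. Resident and incoming macrophages and neutrophils raise the alarm through cytokines such as interleukin 1 beta and through chemokines, much of it under the transcription factor NF-kB, and cells that sense viral or damaged nucleic acid answer with interferons and interferon-stimulated genes. Growing and tumour cells need many ribosomes, whose parts are made and fitted together in the nucleolus by a large set of assembly factors.

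Each library held between 28621536 and 40877342 reads assigned to genes over the whole series. The TDCIPP+DOX libraries held 34016114, 40412239 and 33019496 reads and the DOX libraries 34748915, 28995420 and 30044024. The liver markers fabp10a, tfa and apoa2 were high in all 6 libraries, with fabp10a between 3730 and 6504 CPM in TDCIPP+DOX and between 6505 and 9899 CPM in DOX (CPM are read counts scaled to a common library size with TMM factors). Replicate 3 of each group stood apart. TDCIPP+DOX replicate 3 held the most intestine transcripts, with vil1, the villin of the gut brush border, at 172 CPM against 5.69 and 0.0355 CPM in the other TDCIPP+DOX libraries. DOX replicate 3 held oocyte transcripts, with buc, which organises the oocyte's Balbiani body, at 205 CPM against 2.66 and 0.438 CPM in the other DOX libraries. It also had the lowest tfa level of the 6, at 20318 CPM against 36561 and 44015 CPM in the other DOX libraries. A list of hepatocyte secreted products summed to 74792 CPM in DOX replicate 3 and to 141892 and 139750 CPM in the other DOX libraries. In TDCIPP+DOX that sum was 137174 to 144893 CPM. Across log2 CPM of all genes DOX replicate 3 correlated at 0.818 and 0.811 with DOX replicates 1 and 2, which correlated at 0.944 with each other. Among the TDCIPP+DOX libraries the correlations lay between 0.898 and 0.942. Results are therefore also given without the third libraries of both groups, which leaves 2 against 2. Whether each library of a group holds another fish is stated nowhere in the labels, and p-values therefore describe only how far these libraries differ, which may be technical in part.

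In edgeR's quasi-likelihood test 403 genes passed a Benjamini-Hochberg adjusted p of 0.05, 2.1% of those tested. Of these, 136 were higher in TDCIPP+DOX (0.71% of genes tested) and 267 were lower (1.39%). The median log2 fold change was 2.3 for the genes called higher and -1.33 for those called lower. These sets differed in level, since 103 of the 136 and 265 of the 267 averaged 5 CPM or more in the higher group. The part of level in the sizes was not tested. All 403 had no overlap between the 3 TDCIPP+DOX and the 3 DOX libraries, as did 27.1% of all genes tested. The adjusted p-values sat close to the threshold, since 391 of the 403 were at 0.03 or above and the smallest was 0.0176. Before adjustment 1988 genes were higher with p under 0.05 (10.4%) and 2687 were lower (14%). DESeq2 called 2176 genes (11.4%), 942 higher and 1234 lower, and 399 of the 403 were among them. Over all genes, 46.3% had a log2 fold change above 0. The split between rises and falls depended on the scaling. With library totals in place of TMM, under which all genes together had a median log2 fold change of 0.23 and not the -0.08 of TMM, 142 genes were called, 129 higher and 13 lower. Totals without the vitellogenin reads gave 132 calls, 71 higher and 61 lower. The calls also rested on the spread shared with the TDCIPP and DMSO libraries. A fit of only the 6 compared libraries called 0 genes (smallest edgeR adjusted p = 0.122). Leaving out 1 library could end the calls: 0 genes passed without any 1 of the TDCIPP+DOX libraries (2966 to 3822 at an unadjusted p under 0.05), 2 without DOX replicate 2, 413 without DOX replicate 1 and 476 without DOX replicate 3. Directions below are relative to the TMM scale unless stated. Without the third libraries 15 genes passed the threshold (0.0771% of 19462 genes), 8 higher (0.0411%) and 7 lower (0.036%).

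**Figure D1:**
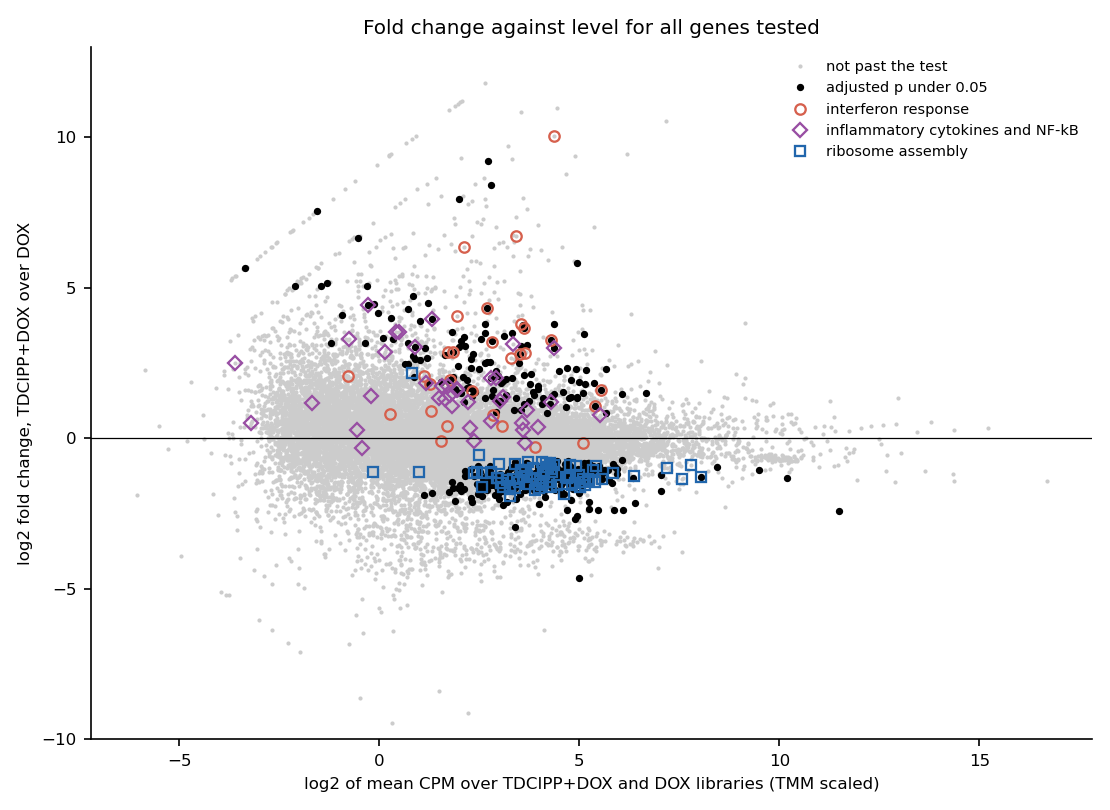
Log2 fold change of TDCIPP+DOX over DOX (vertical) against the log2 of the mean CPM over both groups (horizontal) for the 19160 genes tested. Black points mark the 403 genes past an adjusted p of 0.05. Open circles (interferon response) and diamonds (inflammatory cytokines and NF-kB) lie mostly above 0, and squares (ribosome assembly) lie in a narrow band below 0.

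Interferon-stimulated genes were higher in TDCIPP+DOX. Of 29 members of the interferon response list that were tested, 8 rose (against 0.71% of all genes) and 0 fell. The median log2 fold change of the list was 2.06, where that of all genes was -0.08, and in 23 of the 29 every TDCIPP+DOX library was above every DOX library, which held for 13.5% of all genes. DESeq2 called 18 of the 29 higher (4.92% of all genes). The antiviral GTPase mxe stood at 2.5, 5.81 and 10.6 CPM in TDCIPP+DOX and at 0.76, 1.13 and 0.701 CPM in DOX. Its log2 fold change was 2.87 ± 0.50 (SE; edgeR adjusted p = 0.0333), a 7.32-fold rise. A second GTPase of this family, mxc, reached 10.2, 5.08 and 21.4 CPM in TDCIPP+DOX, against 0.0877, 0.73 and 0.985 CPM in DOX. It rose 20.1-fold (edgeR adjusted p = 0.0439). The ubiquitin-like modifier isg15 was measured at 9.81, 26.6 and 70.5 CPM in TDCIPP+DOX and at 5.18, 3.5 and 2.5 CPM in DOX, a 9.57-fold rise (edgeR adjusted p = 0.0421). In the gene for its activating enzyme, uba7, which is not on the list, the rise was 10.5-fold (edgeR adjusted p = 0.0377). For mxe, isg15 and uba7 the highest value was that of TDCIPP+DOX replicate 3 and no library of one group reached those of the other.

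Among the transcription factors that carry the interferon signal, both stat1a, at 53.9, 54.6 and 63.2 CPM in TDCIPP+DOX and 33.4, 27.8 and 20 CPM in DOX, and stat2, at 54, 75.5 and 80.5 CPM in TDCIPP+DOX and 30.2, 18.6 and 19.9 CPM in DOX, rose (2.11-fold and 3.06-fold, edgeR adjusted p = 0.0451 and 0.0485). They were named after their values were seen. The list's other called members were the nuclear coactivator gene helz2 (5.35, 13.8 and 49.1 CPM in TDCIPP+DOX, 1.43, 2.26 and 1.66 CPM in DOX; 12.7-fold, edgeR adjusted p = 0.0472), ifit16 (3.9, 5.4 and 6.94 CPM in TDCIPP+DOX, 1.52, 1.46 and 1.23 CPM in DOX; 3.86-fold, edgeR adjusted p = 0.032) and a gene of the interferon regulator irf1b. The antiviral enzyme rsad2 (3.78 ± 0.88, edgeR adjusted p = 0.0524) and the interferon regulator irf7 (2.66 ± 0.66, edgeR adjusted p = 0.0595) did not pass, nor did stat1b (2.83 on the log2 scale, edgeR adjusted p = 0.0561). For ifit15 a log2 fold change of 10.03 (edgeR adjusted p = 0.0868) came from TDCIPP+DOX replicate 3, which held 122 CPM where the other TDCIPP+DOX libraries held 0.101 and 0.124 CPM. The mean log2 CPM of the list's members was 2.27, 2.77 and 4.12 in the TDCIPP+DOX libraries and 1.36, 1.51 and 1.28 in the DOX libraries. It was highest in the library with the most intestine transcripts. The list's median was 1.55 without the third libraries, with 17 of 29 members higher at an unadjusted p under 0.05 (8.53% of all genes) and 0 past the adjusted threshold. In the TDCIPP and DMSO libraries, mxe averaged 2.31 ± 0.248 and 1.03 ± 0.233 CPM (SD, n = 3 each), and isg15 9.48 ± 5.55 and 6.67 ± 0.942 CPM.

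Inflammatory signalling genes were higher as well. Of 39 members tested of the list of cytokines and NF-kB genes 6 rose (against 0.71% of all genes) and 0 fell, 22 were higher without overlap between the groups (13.5% of all genes), and the median log2 fold change was 1.36. DESeq2 called 17 higher (4.92% of all genes). The median was 1.51 over the 42 members tested without the third libraries. There 2 members, ccl19a.1 and il1b, passed (against 0.0411% of all genes). The chemokine gene ccl19a.1, whose mammalian relative draws T cells and dendritic cells, had one of the smallest adjusted p-values of all genes. It stood at 36.2, 27.6 and 45.9 CPM in TDCIPP+DOX, against 4.18, 7.08 and 2.54 CPM in DOX. The groups were far apart, and the log2 fold change was 3.00 ± 0.37 (edgeR adjusted p = 0.0176). In TDCIPP livers it averaged 14.8 ± 3.56 CPM and in DMSO livers 3.91 ± 0.437 CPM (SD, n = 3 each). Interleukin 1 beta, il1b, was measured at 8.7, 4.07 and 1.21 CPM in TDCIPP+DOX and at 0.0585, 0.182 and 0.613 CPM in DOX. Replicate 3 was the lowest library of TDCIPP+DOX and the highest of DOX, yet the groups did not overlap. The log2 fold change was 3.97 ± 0.89 (edgeR adjusted p = 0.0485) and 5.70 without the third libraries (edgeR adjusted p = 0.0404).

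Some other members of the list passed as well. Caspase a, caspa, which processes interleukin 1 beta in zebrafish, stood at 2.89, 3.96 and 2.97 CPM in TDCIPP+DOX, against 0.234, 0.401 and 0.547 CPM in DOX (log2 fold change 3.04 ± 0.51, edgeR adjusted p = 0.0322). The NF-kB subunit relb was at 13, 9.36 and 11.7 CPM in TDCIPP+DOX and at 6.29, 3.21 and 5.12 CPM in DOX, a 2.33-fold rise (edgeR adjusted p = 0.0451). The NF-kB inhibitor nfkbiaa, itself a target of NF-kB, rose 4.03-fold (edgeR adjusted p = 0.0485). Each of these 3 genes was higher in every TDCIPP+DOX library than in any DOX library. Other NF-kB genes of the list did not pass. The subunit gene rela had a log2 fold change of -0.11 (edgeR adjusted p = 0.851). A further inhibitor gene, nfkbiab, had one of 0.78 (edgeR adjusted p = 0.381). Both were named after their values were seen. Of the list's 39 members 36 were above 0 and 3 below. The sixth called member, cxcl11.1, a chemokine that interferon induces in mammals, stayed low, with 0.888, 0.586 and 3.21 CPM in TDCIPP+DOX and at most 0.146 CPM in DOX (4.42 ± 0.96, edgeR adjusted p = 0.0464). The neutrophil chemokine cxcl8a did not pass, at 3.86, 3.38 and 3.17 CPM in TDCIPP+DOX and 1.14, 1.46 and 0.35 CPM in DOX (1.83 ± 0.44, edgeR adjusted p = 0.0563). Tumour necrosis factor, tnfa, was at most at 0.222 CPM in both groups and overlapped (edgeR adjusted p = 0.26). The related chemokine ccl19a.2, which is not on the list, had the largest rise of the called genes named here, 7.96 ± 1.68 on the log2 scale (edgeR adjusted p = 0.0451), which rested on TDCIPP+DOX replicate 3. That library held 22.8 CPM, where the other TDCIPP+DOX libraries held 0.525 and 0.48 and the DOX libraries at most 0.0365 CPM. Its log2 fold change was 3.76 without the third libraries (edgeR adjusted p = 0.142). The deposited bounds of ccl19a.2 (chromosome 5, 13373593 to 13376424) lie within those of ccl19a.1 on the same strand, so reads may be split between them.

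**Figure D2:**
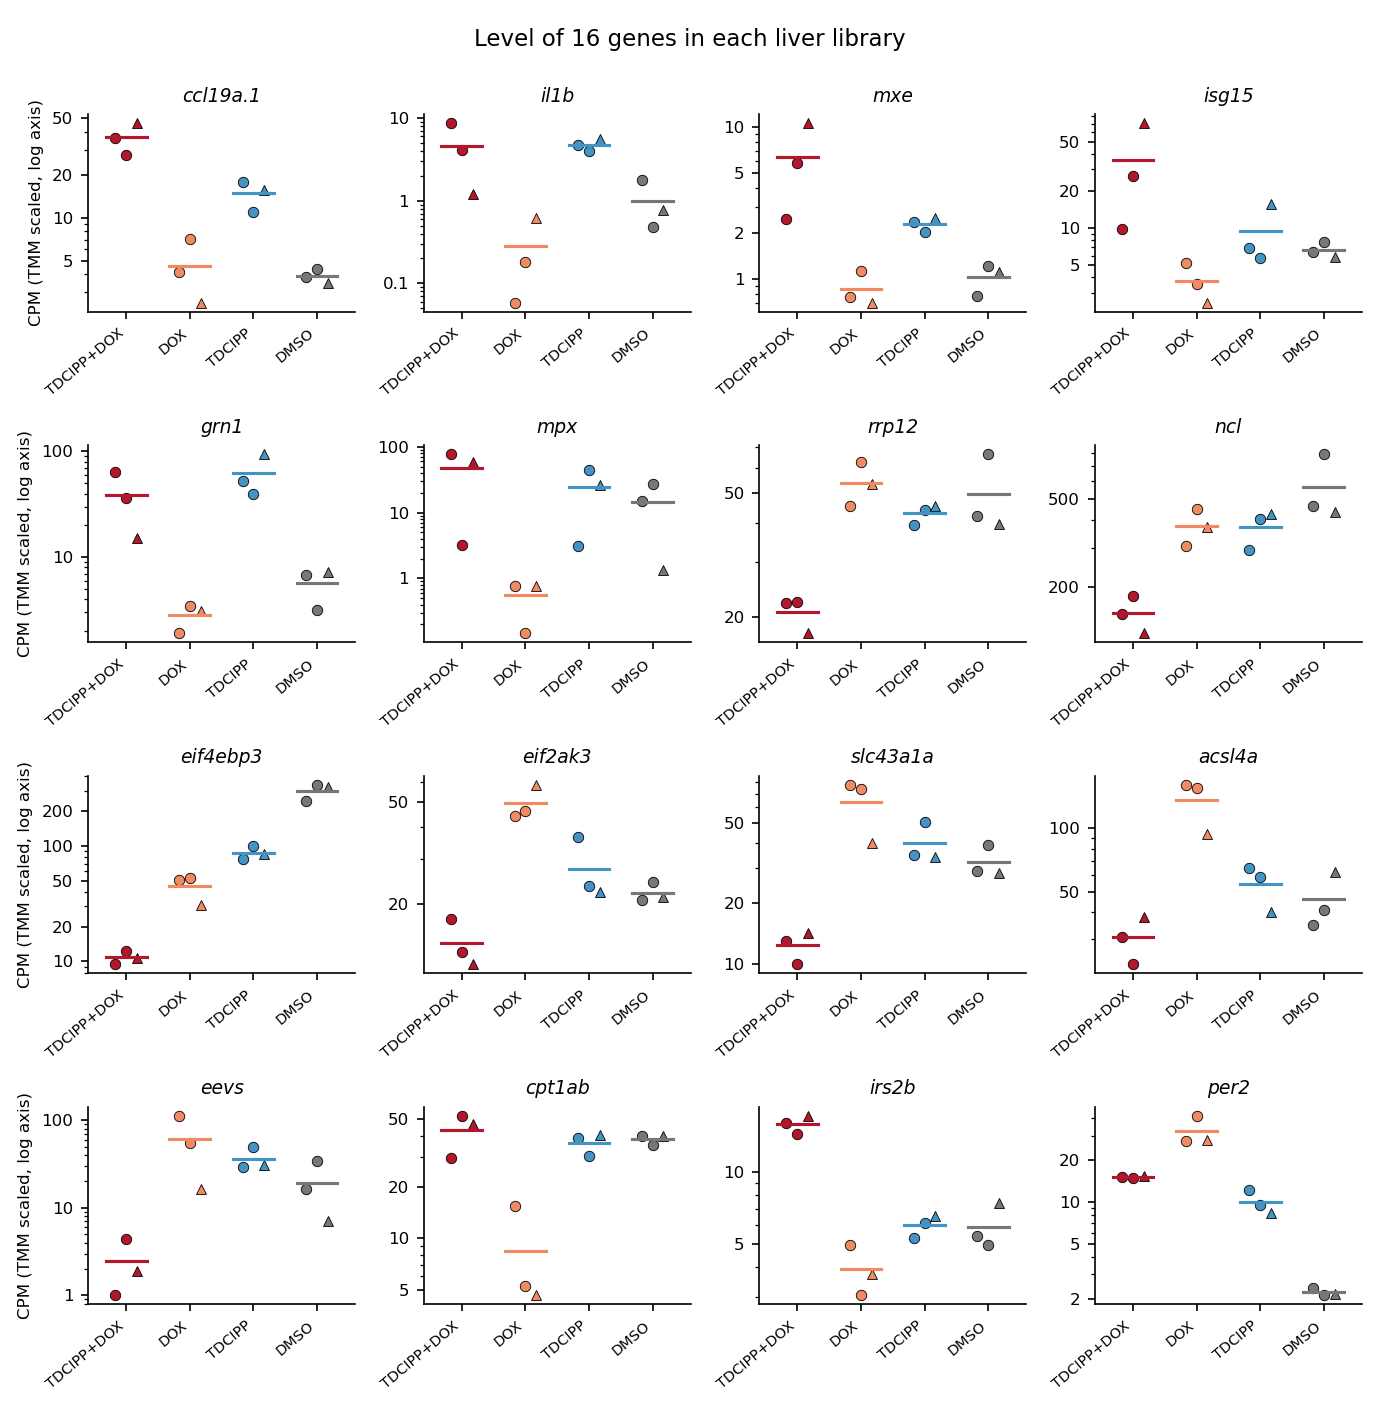
CPM on a log axis of 16 genes in each library, for TDCIPP+DOX, DOX, TDCIPP and DMSO from left to right. Points are libraries (circles replicates 1 and 2, triangles replicate 3) and bars are means of 3. In ccl19a.1, il1b, mxe, isg15, grn1, cpt1ab and irs2b all TDCIPP+DOX points lie above all DOX points, and in rrp12, ncl, eif4ebp3, eif2ak3, slc43a1a, acsl4a, eevs and per2 all lie below. For mpx, which did not pass the test, the groups did not overlap either.

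Macrophage genes were higher in part. Of 32 macrophage list members tested, 4 rose (against 0.71% of all genes) and 0 fell. Without the third libraries 1, grn1, passed (against 0.0411% of all genes). The list's median log2 fold change was 1.1, and 20 of the 32 were higher in every TDCIPP+DOX library than in any DOX library (13.5% of all genes). In bulk liver, more macrophages and more RNA of these genes per macrophage cannot be told apart. The progranulin gene grn1 stood at 64.2, 36.5 and 15.2 CPM in TDCIPP+DOX, against 1.9, 3.43 and 3.09 CPM in DOX. The lowest TDCIPP+DOX library was above the highest DOX library, and the log2 fold change was 3.78 ± 0.57 (edgeR adjusted p = 0.032). A second progranulin gene, grna, was at 66.8, 60 and 36.8 CPM in TDCIPP+DOX and at 15.8, 15.1 and 15.7 CPM in DOX, a 3.51-fold rise (edgeR adjusted p = 0.0364). The pore-forming protein gene mpeg1.2 rose 10.2-fold (13.1, 7.32 and 3 CPM in TDCIPP+DOX, 0.351, 0.985 and 0.942 CPM in DOX; edgeR adjusted p = 0.0364). The galectin gene lgals9l1 rose 11.2-fold (edgeR adjusted p = 0.032). The common macrophage markers mpeg1.1 and marco did not pass, with log2 fold changes of 1.05 and 1.77 (edgeR adjusted p = 0.158 and 0.217). In both the groups did not overlap. Outside the list cd83, a marker of activated antigen-presenting cells that was named after its values were seen, rose 8.23-fold (edgeR adjusted p = 0.034). For grn1 and grna the TDCIPP livers had levels near those of TDCIPP+DOX, 62.3 ± 28.9 and 73.2 ± 33.8 CPM, and the DMSO livers 5.72 ± 2.25 and 20.4 ± 5.38 CPM (SD, n = 3 each).

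Neutrophil genes varied more between libraries. Of 21 tested, 1 rose (ncf1, against 0.71% of all genes) and 0 fell, although 12 were higher at an unadjusted p under 0.05 (10.4% of all genes) and the median log2 fold change was 2.03. The gene ncf1 encodes a subunit of the phagocyte oxidase. Its levels were 24.2, 6.29 and 7.76 CPM in TDCIPP+DOX and 0.614, 1.79 and 1.66 CPM in DOX (log2 fold change 3.23 ± 0.70, edgeR adjusted p = 0.0464). Myeloperoxidase, mpx, differed most in size without passing. It stood at 77.8, 3.27 and 59.5 CPM in TDCIPP+DOX, against 0.76, 0.146 and 0.766 CPM in DOX (6.35 ± 1.5, edgeR adjusted p = 0.053). The TDCIPP+DOX libraries differed widely among themselves, but all were above the DOX levels. So were the TDCIPP libraries, at 3.16, 45 and 26.1 CPM, and the DMSO libraries, at 15.2, 27.5 and 1.34 CPM. DOX was thus the lowest of the 4 groups for mpx. The gelatinase gene mmp9 overlapped between the groups (edgeR adjusted p = 0.34). T and NK cell markers (16 tested), B cell markers (8) and red blood cell markers (16) had 0 members past the test, with median log2 fold changes of 1.57, 1.09 and 1.31. Before adjustment 3 T and NK cell, 4 B cell and 6 red blood cell markers were higher with p under 0.05 (10.4% of all genes). By DESeq2 the counts were 2, 1 and 3 (4.92% of all genes).

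Genes that show fragments of proteins to T cells were shifted upward by a median of 1.11 (log2, 25 members), of which 1 rose (against 0.71% of all genes). This was tap1, the pump that moves peptides into the endoplasmic reticulum (13.8, 7.45 and 11.6 CPM in TDCIPP+DOX, 4.24, 5.25 and 5.06 CPM in DOX; 2.25-fold, edgeR adjusted p = 0.0451). Complement genes had a median of 0.59 over 34 members with 32 above 0. Of them 1 rose (against 0.71% of all genes), cfd, the protease that starts the alternative pathway, at 28.2, 18.8 and 17.2 CPM in TDCIPP+DOX and 8.31, 8.43 and 6.74 CPM in DOX (2.73-fold, edgeR adjusted p = 0.0451). For both genes the groups did not overlap. Proteasome subunits, which make the peptides, had a median of 0.27 over 44 members, 0 rose and 1 fell (against 1.39% of all genes). The fallen gene was psmd10, which encodes an assembly chaperone of the regulatory cap (-1.64 ± 0.35, edgeR adjusted p = 0.0455).

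Genes for building ribosomes were lower as a list, and part of them passed the test. Of 76 ribosome assembly genes tested, 23 fell (against 1.39% of all genes) and 0 rose, 75 had a log2 fold change below 0, and in 73 every TDCIPP+DOX library was below every DOX library, which held for 13.6% of all genes. The median log2 fold change was -1.29, with a range of -1.93 to -0.57 for the 75. DESeq2 called 67 lower (6.44% of all genes). The falls were of similar size across genes with different roles. The gene rrp12, whose product helps to export the small subunit from the nucleus, stood at 22.2, 22.3 and 17.7 CPM in TDCIPP+DOX, against 45.3, 62.7 and 53.3 CPM in DOX (log2 fold change -1.37 ± 0.23, edgeR adjusted p = 0.0322). The rRNA methyltransferase gene ftsj3 was at 16.9, 15.6 and 13.7 CPM in TDCIPP+DOX and at 31.9, 53.4 and 45.8 CPM in DOX (-1.50 ± 0.23, edgeR adjusted p = 0.0322). The nucleolar GTPase gene gnl2, which acts on the large subunit, was at 16.1, 16.6 and 14.5 CPM in TDCIPP+DOX and at 34.3, 45.4 and 35.2 CPM in DOX (-1.28 ± 0.22, edgeR adjusted p = 0.0322). In each of these genes the highest TDCIPP+DOX library was far below the lowest DOX library.

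The abundant nucleolar protein gene ncl, nucleolin, named after its values were seen, was at 152, 183 and 124 CPM in TDCIPP+DOX, against 308, 450 and 372 CPM in DOX (-1.30 ± 0.28, edgeR adjusted p = 0.0455), and nop2, another rRNA methyltransferase gene, fell 3.58-fold (edgeR adjusted p = 0.0397). The one member above 0 was myca, a MYC transcription factor gene that the list holds as a regulator. It stood at 2.83, 1.39 and 4.31 CPM in TDCIPP+DOX and at 0.848, 0.876 and 0.197 CPM in DOX, without passing (2.15 ± 0.67, edgeR adjusted p = 0.0993). Mean log2 CPM of the list was 3.46, 3.6 and 3.24 in the TDCIPP+DOX libraries and 4.36, 4.71 and 4.69 in the DOX libraries. In TDCIPP it lay at 4.38 to 4.53 and in DMSO at 4.36 to 5.31, so the TDCIPP+DOX libraries were the lowest of all 12. The median was -1.14 without the third libraries, and 67 of 76 were lower at an unadjusted p under 0.05 (10.4% of all genes) with 0 past the adjusted threshold. With library totals in place of TMM it was -0.97 and 0 members passed.

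**Figure D3:**
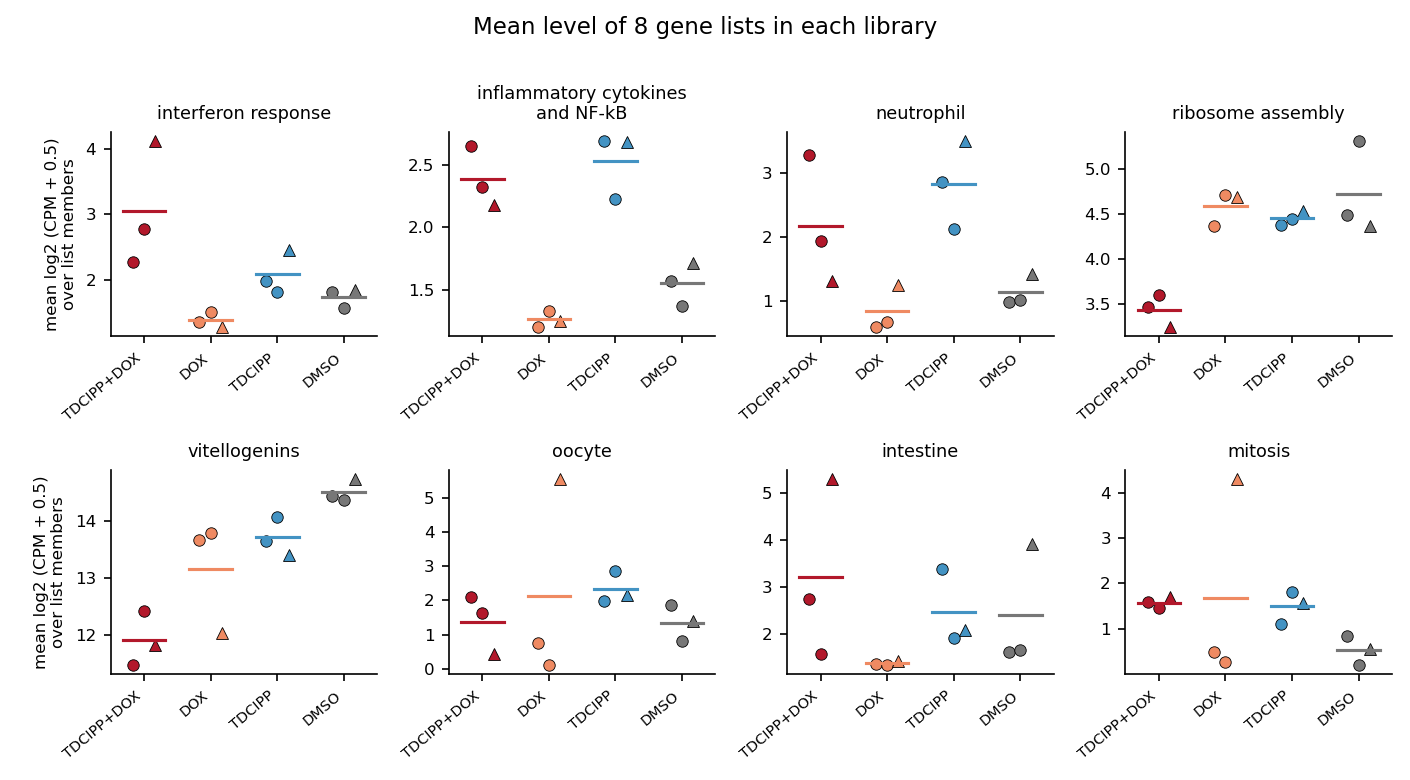
Mean log2 (CPM + 0.5) over the members of 8 gene lists in each library, for TDCIPP+DOX, DOX, TDCIPP and DMSO from left to right (circles replicates 1 and 2, triangles replicate 3, bars means of 3). Ribosome assembly lies at 3.24 to 3.6 in TDCIPP+DOX, below all other libraries. Oocyte and mitosis lists are highest in DOX replicate 3, and the intestine list is highest in TDCIPP+DOX replicate 3.

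The ribosome's own proteins were lower by less. Of 83 cytoplasmic ribosomal protein genes tested, 2 fell, rps29 and rpl38 (against 1.39% of all genes), and 0 rose. The list's median log2 fold change was -0.70, with 64 lower at an unadjusted p under 0.05 (14% of all genes). Its mean log2 CPM was 8.93, 8.95 and 8.86 in the TDCIPP+DOX libraries and 9.80, 9.79 and 8.97 in the DOX libraries. DOX replicate 3 was thus near the TDCIPP+DOX level, and the list's fall rested mainly on DOX replicates 1 and 2. The gene rps29 stood at 510, 439 and 462 CPM in TDCIPP+DOX, against 1016, 1113 and 800 CPM in DOX (-1.05 ± 0.24, edgeR adjusted p = 0.0485). Mitochondrial ribosomal proteins, which translate the genes of mitochondrial DNA, had a median of -0.65 over 74 members, 59 of them lower without overlap (13.6% of all genes), as were 29 of the 83 cytoplasmic ones. Of the 74 mitochondrial ones mrpl48, mrps30, mrps18b and mrpl18 fell (edgeR adjusted p between 0.0378 and 0.0485, against 1.39% of all genes) and 0 rose. With library totals the medians of both lists were -0.30 and -0.35. Without the third libraries they were -0.93 and -0.71. Many ribosomal protein genes have near-identical copies elsewhere in a genome, so reads may be split between those.

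Among 63 translation initiation genes 4 fell (against 1.39% of all genes) and 0 rose. The strongest was eif4ebp3, which binds the cap-binding protein eIF4E and blocks initiation. It stood at 9.45, 12.4 and 10.6 CPM in TDCIPP+DOX and at 51, 52.5 and 30.4 CPM in DOX. The groups were well apart, with a log2 fold change of -2.04 ± 0.25 (edgeR adjusted p = 0.0176). In TDCIPP and DMSO livers it averaged 86.9 ± 11.1 and 300 ± 50.6 CPM (SD, n = 3 each), so that each of the 4 groups held a level of its own. The kinase gene eif2ak3, known as PERK, which slows initiation when the endoplasmic reticulum is under stress, was at 17.5, 13.1 and 11.7 CPM in TDCIPP+DOX and at 44, 46.1 and 58.3 CPM in DOX (-1.81 ± 0.25, edgeR adjusted p = 0.0244). The other called members were eif4ba, a helper of the eIF4A helicase (-1.19 ± 0.22, edgeR adjusted p = 0.0364), and eif4ea, an eIF4E gene (-1.19 ± 0.24, edgeR adjusted p = 0.0428). The initiation list's median was -0.56. With library totals in place of TMM it was -0.17 and 1 member was called lower. The integrated stress response list, which shares eif4ebp3 and eif2ak3, had 0 other members past the test of 39, and a median of -0.34. With library totals that median was 0.01 and 1 member was called lower. Other genes of the unfolded protein response did not pass. The transcription factor gene xbp1 was at 236, 368 and 321 CPM in TDCIPP+DOX and at 766, 1039 and 493 CPM in DOX (-1.31 ± 0.30, edgeR adjusted p = 0.0506), and the membrane-bound factor gene atf6 had a log2 fold change of -1.11 ± 0.27 (edgeR adjusted p = 0.0561). The list of folding and degradation genes that holds them had 0 of 60 called and a median of -0.26. In it 10 were lower at an unadjusted p under 0.05 (14% of all genes) and 5 by DESeq2 (6.44%). With library totals its median was 0.08. The membrane protein gene lrrc59, which tethers ribosomes to the endoplasmic reticulum, was at 13.8, 19.7 and 9.46 CPM in TDCIPP+DOX and at 66.7, 101 and 56.7 CPM in DOX (-2.38 ± 0.38, edgeR adjusted p = 0.0322).

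Some genes of amino acid transport and methionine metabolism were lower. The transporter gene slc43a1a, which carries large neutral amino acids such as leucine, stood at 13, 10 and 14.2 CPM in TDCIPP+DOX, against 77.4, 73.5 and 39.9 CPM in DOX. Every TDCIPP+DOX library was below every DOX library, and the log2 fold change was -2.36 ± 0.29 (edgeR adjusted p = 0.0176). It was the 1 member called of 32 amino acid transporters (against 1.39% of all genes called lower), a list whose median was 0.53 with 19 members above 0. The enzyme gene mat2aa, which makes S-adenosylmethionine, was also lower. Its levels were 14.3, 17.1 and 10.9 CPM in TDCIPP+DOX and 104, 33.3 and 45.5 CPM in DOX (-2.11 ± 0.41, edgeR adjusted p = 0.039). A gene that the table names SLC7A1 (1 of many), after the mammalian carrier of cationic amino acids, was at 1.53, 4.5 and 3.02 CPM in TDCIPP+DOX and at 25.2, 9.78 and 7.18 CPM in DOX (-2.22 ± 0.50, edgeR adjusted p = 0.0489). None of these genes had overlapping groups. Of 55 amino acid breakdown genes 1 fell (against 1.39% of all genes) and 0 rose, with a list median of -0.31. The fallen gene was qdprb1, which recycles the tetrahydrobiopterin that phenylalanine hydroxylase needs (-1.44 ± 0.31, edgeR adjusted p = 0.0451). With library totals in place of TMM the list's median was 0.09 and 0 members were called.

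Lipid genes fell in part. Of 44 members tested of the fatty acid synthesis list, 3 fell (against 1.39% of all genes) and 0 rose. The median log2 fold change was -0.38, and -0.08 with library totals in place of TMM. The fallen genes activate fatty acids or attach them to glycerol. The first, acsl4a, an acyl-CoA synthetase gene with a taste for arachidonic acid, was at 30.6, 22.8 and 38.2 CPM in TDCIPP+DOX and at 160, 154 and 93.7 CPM in DOX (-2.15 ± 0.32, edgeR adjusted p = 0.032). The levels of acsl1b, a second acyl-CoA synthetase gene, were 3.35, 10.1 and 10.5 CPM in TDCIPP+DOX and 61.5, 62.8 and 29.3 CPM in DOX (-2.67 ± 0.45, edgeR adjusted p = 0.0322). The glycerol acyltransferase gene gpam fell 4.04-fold (edgeR adjusted p = 0.0322). In all 3 the groups did not overlap and DOX replicate 3 was the lowest DOX library. Fatty acid synthase itself, fasn, did not pass, at 236, 293 and 98.8 CPM in TDCIPP+DOX and 352, 1106 and 438 CPM in DOX (-1.59 ± 0.49, edgeR adjusted p = 0.0974). Outside the list mid1ip1l, whose product stimulates acetyl-CoA carboxylase, fell 5.28-fold (edgeR adjusted p = 0.0335).

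Of 29 sterol synthesis genes 25 were below 0, and the median log2 fold change was -0.96. Of the 29, 1 fell (against 1.39% of all genes) and 0 rose. The fallen gene was insig1, whose product holds the sterol-sensing machinery in the endoplasmic reticulum. It stood at 25.3, 17.6 and 13 CPM in TDCIPP+DOX, against 68.6, 155 and 69.1 CPM in DOX (-2.39 ± 0.45, edgeR adjusted p = 0.0364). The rate-limiting enzyme gene hmgcra was at 30.4, 20 and 5.58 CPM in TDCIPP+DOX and at 81.7, 159 and 34.9 CPM in DOX, without passing (-2.30 ± 0.89, edgeR adjusted p = 0.154). On the burning side, 1 of 42 members of the fatty acid oxidation and ketone list rose (against 0.71% of all genes) and 0 fell. This was cpt1ab, which admits fatty acids to mitochondria, at 29.5, 52.4 and 47 CPM in TDCIPP+DOX and at 15.4, 5.29 and 4.66 CPM in DOX (2.34 ± 0.42, edgeR adjusted p = 0.034). The TDCIPP and DMSO livers, at 36.4 ± 5.13 and 38.3 ± 2.58 CPM (SD, n = 3 each), were near the TDCIPP+DOX level. The list's median was 0.01, and it changed sign under 5 of the alternative settings.

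Glucose metabolism showed 1 rise among 44 members (against 0.71% of all genes) and 0 falls. The glyceraldehyde-3-phosphate dehydrogenase gene gapdhs stood at 69.1, 55.1 and 54.1 CPM in TDCIPP+DOX, against 9.97, 14.3 and 12.3 CPM in DOX (2.28 ± 0.28, edgeR adjusted p = 0.0176). The second gene for this enzyme, gapdh, pointed the other way without passing, at 569, 1081 and 616 CPM in TDCIPP+DOX and 1760, 1880 and 1312 CPM in DOX (-1.13 ± 0.28, edgeR adjusted p = 0.0572). Neither gene had overlapping groups. The gluconeogenic enzyme gene pck1 overlapped widely, from 33.1 to 109 CPM in TDCIPP+DOX and from 14.9 to 228 CPM in DOX (edgeR adjusted p = 0.57). In the gluconeogenesis list 2 of 26 fell (against 1.39% of all genes), with a median of -0.36. The first was foxo3a, a transcription factor that insulin keeps out of the nucleus (4.22, 4.02 and 3.04 CPM in TDCIPP+DOX, 7.93, 9.52 and 16.5 CPM in DOX, -1.59 ± 0.34, edgeR adjusted p = 0.0451). The other was mdh1ab, a malate dehydrogenase gene (-1.68 ± 0.35, edgeR adjusted p = 0.0451). With library totals in place of TMM the gluconeogenesis list's median was -0.03 and 0 members were called.

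In insulin signalling the adaptor gene irs2b was at 15.9, 14.4 and 17.1 CPM in TDCIPP+DOX and at 4.97, 3.07 and 3.74 CPM in DOX (2.01 ± 0.25, edgeR adjusted p = 0.0176), above TDCIPP and DMSO livers as well, which averaged 5.98 ± 0.626 and 5.91 ± 1.3 CPM (SD, n = 3 each). The inhibitor of growth hormone signalling socs2 rose 4.95-fold (edgeR adjusted p = 0.0451). These were the 2 called of 36 members of the growth hormone, IGF and cytokine inhibitor list (against 0.71% of all genes). The enzyme that inactivates cortisol, hsd11b2, was at 15.9, 18.4 and 27.7 CPM in TDCIPP+DOX and at 2.4, 3.17 and 1.86 CPM in DOX (3.06 ± 0.53, edgeR adjusted p = 0.0333), and averaged 25.2 ± 15.9 CPM in TDCIPP and 84.9 ± 38.8 CPM in DMSO livers (SD, n = 3 each). It was called in the glucocorticoid list together with nfkbiaa, 2 of 25 (against 0.71% of all genes), and the list's median was 0.17. The bile acid list had 0 of 20 called, with its rate-limiting enzyme gene cyp7a1 at 21.3, 46.8 and 40.8 CPM in TDCIPP+DOX and at 164, 214 and 126 CPM in DOX (-2.21 ± 0.57, edgeR adjusted p = 0.0626). In that list 3 genes were higher (10.4% of all genes) and 2 lower (14%) before adjustment. By DESeq2 2 were higher (4.92% of all genes) and 2 lower (6.44%).

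Some of the most changed genes belonged to no list. The largest named fall was that of eevs, an enzyme gene of the pathway to gadusol, a sunscreen compound that fish make. It stood at 1.01, 4.39 and 1.92 CPM in TDCIPP+DOX, against 113, 55.1 and 16.6 CPM in DOX (-4.65 ± 0.83, edgeR adjusted p = 0.034). The DOX libraries differed widely among themselves, and all were above the TDCIPP+DOX libraries. The protein phosphatase gene ppm1la was at 2.6, 2.74 and 1.83 CPM in TDCIPP+DOX and at 15.3, 15.2 and 24.8 CPM in DOX (-2.94 ± 0.33, edgeR adjusted p = 0.0176). The kelch-family gene klhl24b, named after its values were seen, was at 26.1, 20.2 and 21.9 CPM in TDCIPP+DOX and at 3.98, 4.74 and 6.81 CPM in DOX (2.13 ± 0.29, edgeR adjusted p = 0.0244). The ubiquitin protease gene usp33, the Golgi protein gene golga3 and the zinc finger gene nfxl1 fell by similar amounts with narrow spreads. For usp33 the levels were 16.5, 14.1 and 14 CPM in TDCIPP+DOX and 38.8, 51 and 41.1 CPM in DOX (-1.55 ± 0.21), for golga3 the log2 fold change was -1.23 ± 0.17 and for nfxl1 -1.29 ± 0.18 (edgeR adjusted p = 0.0244 each). The secreted phospholipase gene pla2g3 fell 6.01-fold (edgeR adjusted p = 0.0322). The dysferlin-family gene myofl was at 17.4, 10.3 and 4.07 CPM in TDCIPP+DOX and at 0.819, 1.13 and 1.25 CPM in DOX (3.31 ± 0.62, edgeR adjusted p = 0.0364). The fall of rcc1, the nucleotide exchange factor of RAN, leaned on DOX replicate 3, which held 83.3 CPM where the other DOX libraries held 17.4 and 28.5 and the TDCIPP+DOX libraries 9.93, 8.83 and 5.95 CPM (-2.39 ± 0.52, edgeR adjusted p = 0.0464). In calca, the gene of calcitonin and its related peptide, the rise (5.82 ± 1.24, edgeR adjusted p = 0.0451) was uneven, with 2.93, 150 and 29.1 CPM in TDCIPP+DOX and 1.37, 1.24 and 0.613 CPM in DOX.

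Single members of other lists passed, where 0.71% of all genes were called higher. The collagen gene col1a2 rose 5.78-fold (12.7, 14.2 and 6.1 CPM in TDCIPP+DOX, 1.81, 2.48 and 1.42 CPM in DOX; edgeR adjusted p = 0.0421), the 1 member called of 68 collagens and matrix genes, whose median was 0.58. At an unadjusted p under 0.05, 19 of the 68 were higher (10.4% of all genes) and 1 was lower (14%). The death receptor gene fas was the 1 called of 35 p53 target and apoptosis genes (3.61-fold higher, edgeR adjusted p = 0.0464). The 1 called of 28 hepatocyte transcription factors was CABZ01057488.1, an HNF4 beta gene by the reference table's names, at 13.7, 28.5 and 29.1 CPM in TDCIPP+DOX and 11.7, 5.98 and 5.19 CPM in DOX (1.64 ± 0.35, edgeR adjusted p = 0.0454).

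Yolk precursor transcripts took a smaller share of the liver's reads. The 8 vitellogenin genes took 10.3%, 17.7% and 14.1% of reads in TDCIPP+DOX and 29.7%, 32.3% and 19.2% in DOX. Every TDCIPP+DOX library was below every DOX library, and the means were 14.1% ± 3.7 and 27.1% ± 6.93 (SD, n = 3 each; p = 0.1 in a two-sided exact permutation test, the smallest that 3 against 3 can give). In TDCIPP and DMSO livers the share was 31.7% ± 5.47 and 40.3% ± 5.23 (SD, n = 3 each). As single genes 0 of 8 passed, and all 8 were below 0 with a median log2 fold change of -1.41. Before adjustment 7 were lower with p under 0.05 (14% of all genes), and 6 by DESeq2 (6.44%). The main gene vtg1 stood at 38581, 70062 and 61810 CPM in TDCIPP+DOX, against 177981, 200224 and 81758 CPM in DOX (-1.43 ± 0.46, edgeR adjusted p = 0.11). DOX replicate 3, the library with oocyte transcripts, was the lowest of DOX, and without the third libraries the list's median was -1.81. A gene model on an unplaced scaffold, CABZ01042594.1, which the deposited table annotates as vitellogenin 2, did fall. Its levels were 639, 1180 and 873 CPM in TDCIPP+DOX and 4310, 7576 and 2574 CPM in DOX (-2.43 ± 0.41, edgeR adjusted p = 0.0322). In the authors' FPKM, which are per length and on the scale of library totals, this model ranked 6 among all genes in DOX, at 12987 ± 4550, and 28 in TDCIPP+DOX, at 3222 ± 911 (SD, n = 3 each). Vitellogenin genes are close copies, so reads may be split between them. The oestrogen receptor gene esr1, through which oestrogen turns on yolk genes, overlapped between the groups, at 61.6, 99.8 and 155 CPM in TDCIPP+DOX and 280, 334 and 130 CPM in DOX (-1.23 ± 0.42, edgeR adjusted p = 0.123).

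Clock genes were lower in part, 4 of 40 tested (against 1.39% of all genes), with 0 higher and a list median of -0.27. With library totals in place of TMM the list's median was 0.02 and 0 members were called. The light-induced repressor gene per2 was at 15.1, 14.9 and 15.4 CPM in TDCIPP+DOX and at 27.5, 41.7 and 28 CPM in DOX (-1.10 ± 0.22, edgeR adjusted p = 0.0397). The photolyase gene cry5 was at 2.26, 1.72 and 1.49 CPM in TDCIPP+DOX and at 6.35, 10.8 and 6.9 CPM in DOX (-2.13 ± 0.34, edgeR adjusted p = 0.0322). The cryptochrome gene cry2 fell 2.74-fold (edgeR adjusted p = 0.0364), and tefa, a factor of the clock's output that was named after its values were seen, fell 2.56-fold (edgeR adjusted p = 0.0464). In all 4 the groups did not overlap. For per2 the effect of TDCIPP with DOX differed from its effect without DOX, one of 5 genes where it did (0.0261% of genes tested), and TDCIPP and DMSO livers averaged 9.94 ± 1.95 and 2.23 ± 0.152 CPM (SD, n = 3 each). The labels give no hour of collection.

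Readouts of the transgene's pathway did not pass the test. Of 53 feedback and immediate target genes of the RAS-MAPK pathway 0 were called, with a median log2 fold change of 0.32. Before adjustment 7 were higher (10.4% of all genes) and 3 lower (14%) with p under 0.05. By DESeq2 7 were higher (4.92% of all genes) and 1 lower (6.44%). The ERK phosphatase gene dusp6, which ERK itself turns on, stood at 99.9, 54 and 145 CPM in TDCIPP+DOX, against 28.2, 47.6 and 21.5 CPM in DOX (1.62 ± 0.43, edgeR adjusted p = 0.0685). The groups did not overlap. The secreted proteoglycan gene esm1 overlapped, at 796, 645 and 1279 CPM in TDCIPP+DOX and 730, 234 and 165 CPM in DOX (1.27 ± 0.69, edgeR adjusted p = 0.274), and averaged 0.452 ± 0.412 CPM in TDCIPP and 0.807 ± 0.321 CPM in DMSO livers (SD, n = 3 each). Leptin, lepa, was at 52.8, 34.8 and 113 CPM in TDCIPP+DOX and at 79.2, 19.6 and 8.98 CPM in DOX, with overlap, and without reads in the TDCIPP and DMSO libraries (0.90 ± 0.80, edgeR adjusted p = 0.514). Its log2 fold change was -0.21 without the third libraries.

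The cell division genes turned with the third libraries. The 66 mitosis genes had a median log2 fold change of -1.58 with all 6 libraries and 1.72 without the third libraries. In the latter case 42 were higher with p under 0.05 before adjustment (8.53% of all genes) and 0 passed. The oocyte markers had medians of -3.34 with all 6 libraries (41 tested) and 2.18 without the third libraries (40 tested). In the latter case 27 oocyte markers were higher with p under 0.05 before adjustment (8.53% of all genes). Of the 41, the only called member with all 6 libraries was rnf213b, a ubiquitin ligase gene that is not specific to oocytes. It rose (2.51 ± 0.47, edgeR adjusted p = 0.0364), as did 0.71% of all genes. The cyclin gene ccna2 stood at 4.99, 4.83 and 4.59 CPM in TDCIPP+DOX, against 1.9, 1.17 and 80.4 CPM in DOX. The proliferation marker mki67 was at 7.37, 8.96 and 15.8 CPM in TDCIPP+DOX and at 2.63, 3.58 and 19.8 CPM in DOX (0.30 ± 0.72, edgeR adjusted p = 0.822). In both genes DOX replicate 3 was the highest of the 6 libraries and the other DOX libraries were the lowest. The summed CPM of the oocyte list was 4260 in DOX replicate 3 and between 33.3 and 254 in the other 5 libraries, and its part in these results was not tested. DNA replication genes had medians of -0.95 with all 6 libraries and 0.20 without the third libraries, with 0 called in each case.

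Markers of neighbouring organs differed between single libraries. The intestine markers had median log2 fold changes of 4.42 with all 6 libraries (33 tested) and 1.58 without the third libraries (32 tested). With all 6 there were 0 past the test. At an unadjusted p under 0.05 22 were higher (10.4% of all genes), and DESeq2 called 12 higher (4.92%). Their summed CPM was 1435 to 4175 in TDCIPP+DOX and 978 to 1607 in DOX. The fatty acid binding protein gene of intestine, fabp2, was at 3.55, 0.32 and 106 CPM in TDCIPP+DOX and at 0.614, 1.02 and 0.197 CPM in DOX. The defining gene vil1 was at 0 in DOX replicates 1 and 2. The part of intestine transcripts in the immune results was not tested. Without the third libraries the members called were 0 of 29 in the interferon list (8 of 29 with all 6 libraries), 2 of 42 in the cytokine list (6 of 39), 1 of 32 in the macrophage list (4 of 32) and 0 of 22 in the neutrophil list (1 of 21). Over all genes 0.0411% were called higher without the third libraries and 0.71% with all 6. In the same order the list medians were 1.55, 1.51, 1.25 and 2.73 without the third libraries. With all 6 they were 2.06, 1.36, 1.1 and 2.03. Exocrine pancreas markers overlapped, with prss1, trypsin, at 299, 36.6 and 124 CPM in TDCIPP+DOX and at 198, 28 and 9.24 CPM in DOX (edgeR adjusted p = 0.575). Of 10 islet markers 1 was called higher (against 0.71% of all genes), the somatostatin gene sst1.1, at 1.23, 0.693 and 2.76 CPM in TDCIPP+DOX and at 0.0292, 0 and 0.0876 CPM in DOX (5.07 ± 1.01, edgeR adjusted p = 0.0416). Insulin, ins, was at 4.91, 1.03 and 2.2 CPM in TDCIPP+DOX and at 0.0292, 0 and 0.438 CPM in DOX. The part of pancreas transcripts in these values was not tested.

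**Figure D4:**
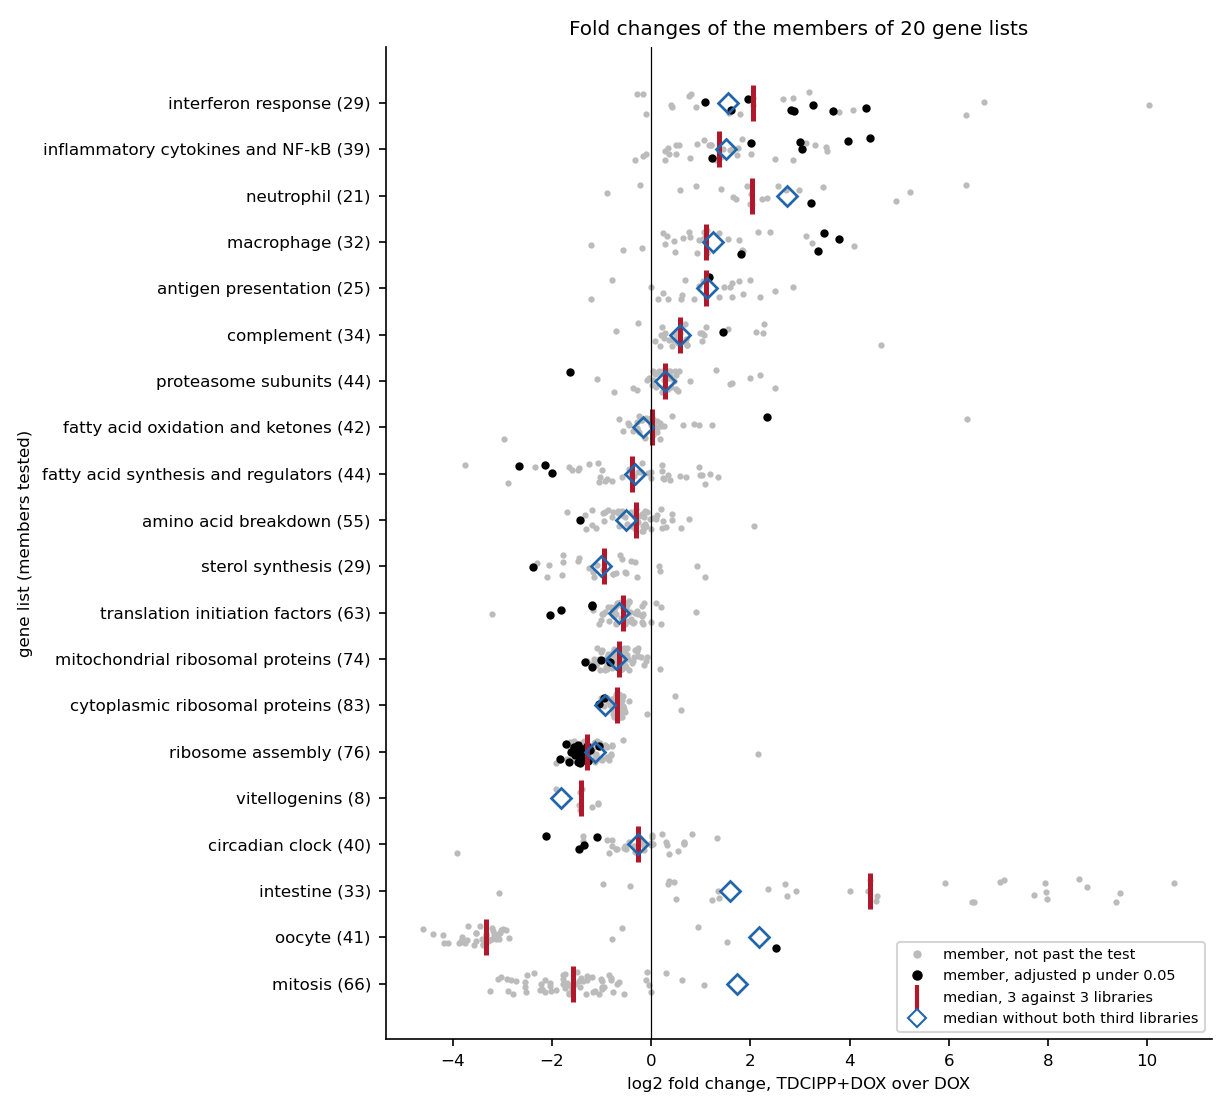
Log2 fold change of TDCIPP+DOX over DOX for the members of 20 gene lists, with the number tested in brackets. Grey points are members that did not pass the test, black points members past an adjusted p of 0.05, red bars medians over 3 against 3 libraries and blue diamonds medians without the third libraries. Medians of the interferon, cytokine, macrophage and ribosome lists keep their side of 0, and those of the oocyte and mitosis lists change it.

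Without the third libraries of both groups 10 of the 403 genes passed the threshold. Those higher were ccl19a.1 (chromosome 5, 13353866 to 13392962), il1b (chromosome 10, 44955106 to 44964776), grn1 (chromosome 19, 40186677 to 40192249) and klhl24b (chromosome 24, 25760986 to 25788841). Those lower included eif4ebp3 (chromosome 21, 26401332 to 26406304), slc43a1a (chromosome 14, 22076596 to 22098011), acsl4a (chromosome 14, 28438947 to 28459446), ppm1la (chromosome 2, 6265768 to 6292510) and the uncharacterised gene zgc:114041 (chromosome 5, 66132394 to 66146759). These are the deposited table's gene bounds, and the genome build is not given in the sources used here. Their edgeR adjusted p-values were 0.0358 for eif4ebp3 and slc43a1a and 0.0404 for the others. Without the third libraries the log2 fold changes were 5.70 for il1b (3.97 with all 6 libraries), -2.36 for zgc:114041 (-1.72 with all 6 libraries), 2.47 for ccl19a.1, 4.21 for grn1, 2.37 for klhl24b, -2.28 for eif4ebp3, -2.75 for slc43a1a, -2.59 for acsl4a and -2.55 for ppm1la. The other 5 genes past the threshold were moxd1, anxa5b, tle3b and CR792441.1, all higher, and ankrd33ba, lower. None of these 5 passed with all 6 libraries, where CR792441.1 had the other sign (-3.49) with 143 CPM in DOX replicate 3. All 403 genes kept their direction, which the lack of overlap between the groups fixes.

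**Figure D5:**
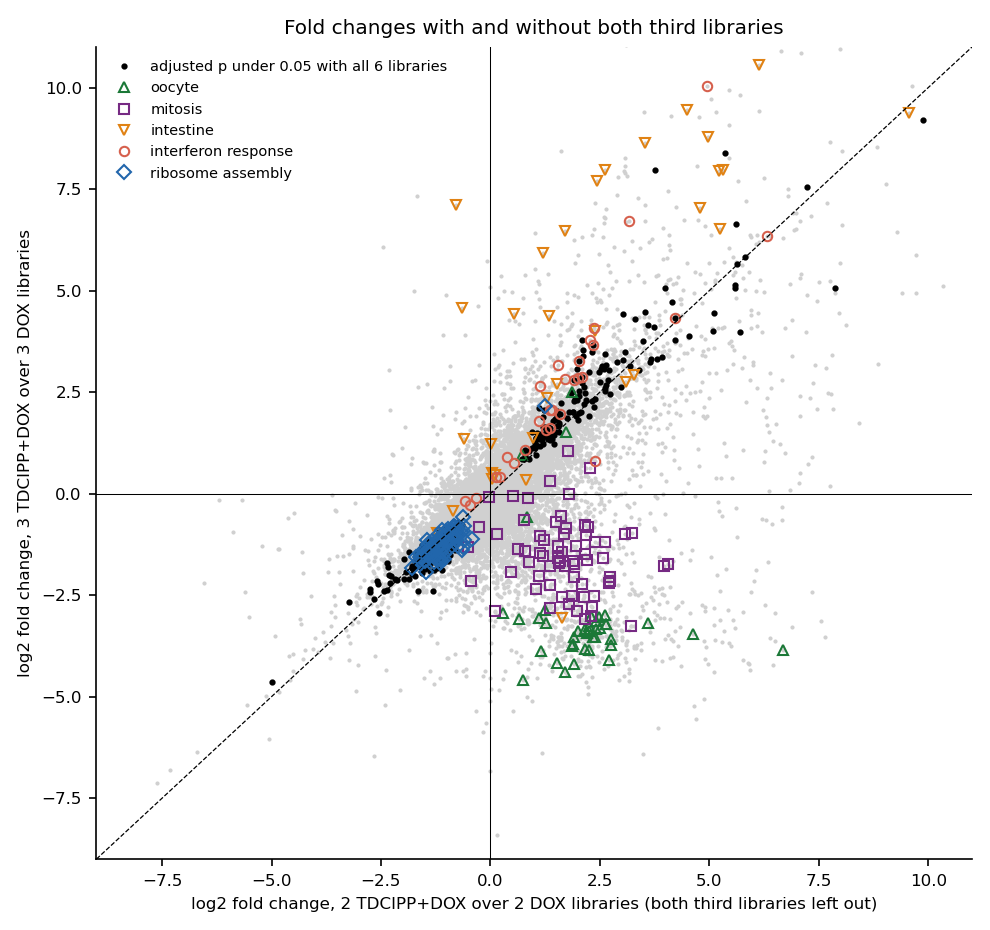
Log2 fold change of TDCIPP+DOX over DOX from all 6 libraries (vertical) against that from 2 against 2 libraries without replicate 3 of each group (horizontal). Black points, the 403 genes called with all 6 libraries, lie along the dashed line of equal values. Oocyte and mitosis genes lie mostly right of and below 0, and many intestine genes lie above the line.

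The authors' deposited table gives their own adjusted p-values for this comparison. In it 34 genes were below 0.05, of which 22 were called here. Among them were ccl19a.1 at an adjusted p of 0.000352, hsd11b2 at 0.000787 and ppm1la at 0.000969 in the authors' deposited table. Those not called here included tac4, which shared the smallest value in that table (0.000352, edgeR adjusted p = 0.347 here). The gene si:ch211-254c8.3, at 0.00497 in that table, was not called either (edgeR adjusted p = 0.312 here). The log2 fold changes computed here were above 0 for 23 of the 34.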

How the data were processed

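RNA was measured in 12 zebrafish liver libraries, 3 in each of 4 groups, grouped by the treatment in the labels. Per the labels' protocols, frozen livers were extracted with Trizol and libraries made with an Illumina kit from NEB. Reads were aligned with HISAT, per the submitters' processing notes, with no version, and the labels name neither the counting tool nor the genome build. The authors deposited raw read counts per gene for 34028 genes, which were used as deposited, and FPKM per gene, which the authors scaled by gene length and library total and which serve here only for levels between genes. The authors' deposited p-value columns were used only where their table is named.

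Counts were tested with edgeR 4.0.16 in R 4.3.3 (glmQLFit and glmQLFTest, TMM, filterByExpr, group means over 12 libraries, 8 residual degrees of freedom), with Benjamini-Hochberg adjustment over the 19160 genes that passed the filter and a threshold of 0.05. DESeq2 1.42.0 was an alternative. The steps were tested on simulated data. CPM are TMM scaled, SE is that of the log2 fold change, and the interaction is the effect of TDCIPP with DOX minus that without. The 56 gene lists (1748 of 1855 symbols matched) and the genes compared were chosen with earlier results of these data known. Named genes are the 15 largest rises and falls called at 5 CPM or more without overlap, the 10 smallest adjusted p-values, up to 3 called per list, and a fixed set. Genes outside this rule were named after their values were seen, namely rsad2, irf7, stat1b, ifit15, cxcl11.1, eif4ea, mrpl18, myca, hmgcra, gapdh, vil1, ins, those said so beside their values and those past the threshold without the third libraries. Symbols missing from the table came from a reference table of gene names. Alternatives were other scalings, no filter, DESeq2, the 6 compared libraries alone, a replicate block, each library left out, the third libraries left out, and 4 libraries with ovary or intestine markers left out. No sequences are printed. One called gene is not reported here.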

Additional observations from a re-analysis of the deposited data

Results flagged for a closer look

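In 5 genes the effect of TDCIPP with DOX differed from its effect without DOX, by the interaction term of the same edgeR fit (0.0261% of genes tested, adjusted p under 0.05; 2457 genes had an unadjusted p under 0.05, and there were 286 calls by DESeq2). The difference was -3.25 ± 0.31 on the log2 scale for per2 (SE; edgeR adjusted p = 0.00788), which stood at 15.1, 14.9 and 15.4 CPM in TDCIPP+DOX, against 27.5, 41.7 and 28 CPM in DOX, and averaged 9.94 ± 1.95 CPM in TDCIPP, against 2.23 ± 0.152 CPM in DMSO (SD, n = 3 each). With DOX the gene was thus lower with TDCIPP, and without DOX it was higher.

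The other 4 genes had an edgeR adjusted p of 0.0469 each. For sst1.1, somatostatin, the difference was 11.74, with 1.23, 0.693 and 2.76 CPM in TDCIPP+DOX, against 0.0292, 0 and 0.0876 CPM in DOX, and 0.00813 ± 0.0141 CPM in TDCIPP, against 1.31 ± 0.631 CPM in DMSO (SD, n = 3 each). These levels are near the limit of detection in DOX and TDCIPP, and other islet genes such as ins were low there too. For PLEKHH3 the difference was 2.72, with 87.6, 83.2 and 123 CPM in TDCIPP+DOX, against 43.5, 31 and 32.2 CPM in DOX, and 30.8 ± 2.48 CPM in TDCIPP, against 73.7 ± 23.3 CPM in DMSO. For the uncharacterised gene si:dkey-22f5.9 it was 2.67, with 221, 295 and 255 CPM in TDCIPP+DOX, against 121, 200 and 116 CPM in DOX, and 82.5 ± 11.3 CPM in TDCIPP, against 298 ± 32 CPM in DMSO. For Novel00094, a model on chromosome 10 without a known name, it was -3.50, with 2.71, 4.42 and 5 CPM in TDCIPP+DOX, against 5.76, 3.94 and 4.51 CPM in DOX, and 5.83 ± 1.36 CPM in TDCIPP, against 0.601 ± 0.0487 CPM in DMSO.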

How the results depend on the processing

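The 403 calls depended on the processing. DESeq2's size factors in edgeR gave 402 calls, library totals 142, totals without vitellogenin reads 132, no filter on low counts 143 and DESeq2 2176. A fit of the 6 compared libraries alone gave 0 (3488 genes at an unadjusted p under 0.05). The labels do not say whether the replicate numbers pair the libraries. Between TDCIPP+DOX and DOX libraries of the same number, deviations from the group means correlated at -0.13, 0.007 and -0.23. These values cannot decide it, because deviations from a mean of 3 sum to 0 and replicate 3 of each group stood apart. A fit with the replicate block gave 256 calls, 202 of them among the 403, with 3 interaction calls and 58 list members called. Leaving out 1 library at a time, where the 2 left are assumed to vary like the other groups, gave 0 to 476 calls. It was 0 without any 1 of the TDCIPP+DOX libraries (3546, 3822 and 2966 at an unadjusted p under 0.05), 2 without DOX replicate 2, 413 without DOX replicate 1 and 476 without DOX replicate 3. Without the third libraries there were 15 calls, and without 4 libraries of all groups that held ovary or intestine markers 57.

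Of the list members 79 were called. The count was 34 with library totals, 35 with totals without vitellogenin reads, 36 without the filter, 370 with DESeq2, 0 with the 6 libraries alone, 0 to 122 when 1 library was left out, 6 without the third libraries and 22 without the 4 libraries. The 5 interaction calls became 16 without the filter, 286 with DESeq2, 0 to 7 when 1 library was left out, 3 without the third libraries and 0 without the 4 libraries. The vitellogenin share differed by -10.4 to -16.9 points when 1 library was left out. No named gene that was called changed direction in any setting. Where libraries were left out, the lack of overlap between the groups fixes this. Of the named genes not called, rela, nfkbiab and the second irf1b gene aside, lepa turned to -0.21 without the third libraries and -0.15 without the 4 libraries. In the same settings ccna2 (to 1.63 and 1.69), buc (to 2.4 and 2.46) and CR792441.1 (to 4.06 and 4.12) turned. Leaving out 1 library moved the log2 fold change of ccna2 between -3.09 and 1.65, mki67 between -0.08 and 1.79, buc between -4.15 and 1.95, CR792441.1 between -4.06 and 3.57, anxa5b between -0.13 and 2.03 and Novel00094 between -0.40 and 0.00. The positive ends for ccna2, buc and CR792441.1 came without DOX replicate 3. With library totals Novel00094 was at 0.08. The causes of these changes were not tested. Genes well below 1 CPM rest on few reads.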
